A study of Homo sapiens with 14 samples.

Results

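The alpha-arrestin genes TXNIP, ARRDC1, ARRDC2, ARRDC3 and ARRDC4 were followed through 14 libraries of polyadenylated RNA from HEK293T, a cell line derived from human embryonic kidney. The 5 genes were picked by name from the 57820 genes in the tables. ARRDC5, the remaining alpha-arrestin of the human genome, was looked at beside them. The family was put forward with results of these libraries already known, so the p-values below place each gene among all genes tested and are not independent evidence for the choice of the family.

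In the first experiment, cells received 0, 4 or 8 µM PDP, a ligand of G-quadruplexes, 20 min before 1 h with 500 µM 4-thiouridine (s4U), and all of that RNA was treated with acrylonitrile. In the second experiment, here called the conversion experiment, the 4 groups were s4U for 24 h with acrylonitrile-treated RNA, s4U for 24 h without acrylonitrile, acrylonitrile without s4U, and neither agent. The s4U dose of the s4U with acrylonitrile group is 500 µM in its sample label and 50 µM in the protocol, while that of the group with s4U alone is 50 µM in both. Each group had 2 libraries, and nothing in the labels says that they came from separate cultures. The p-values therefore measure the spread between these libraries, which may be technical.

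s4U enters newly made RNA in place of uridine, and acrylonitrile makes it read as C. Fragments were counted as labeled (marked) where they showed a T-to-C mismatch, and the share of labeled fragments of a gene rises with the turnover of its RNA. Alpha-arrestins are adaptor proteins with an arrestin fold. Most carry short proline-rich motifs that bring ubiquitin ligases of the NEDD4 family to membrane proteins and so send these proteins into endosomes. TXNIP also binds thioredoxin and promotes the uptake of glucose transporters from the cell surface, and its transcription is driven by MondoA with its partner MLX, which sense sugar phosphates.

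The sequences that can be tied to the ligand and to the transcription of these genes are short motifs near their starts, taken from the GRCh37 genome at the canonical transcripts of GENCODE release 44. The first pair are matches to the MondoA type of motif, searched on both strands as a pair of CACGNG with 5 bases between them, and as the palindromic E-box CACGTG, from 250 bases before to 50 bases after the start. The others are G-quadruplex motifs, 4 runs of at least 3 G with 1 to 7 bases between them, searched on both strands within 2000 bases of the start. They are shown because they lie nearest to each start, and capitals mark the bases that the first motifs fix and, in the G-quadruplex motifs, each run of at least 3 G, so that a long run can also hold the bases between runs.
TXNIP paired motif, chr1:145438402-145438418, plus strand: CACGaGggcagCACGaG
ARRDC4 E-box, chr15:98503714-98503737, plus strand: cggcctgtgCACGTGcacgccgga
ARRDC1 G-quadruplex motif, chr9:140500112-140500136, plus strand: GGGactcgcGGGcggcGGGcGGGGG
ARRDC2 G-quadruplex motif, chr19:18118926-18118943, minus strand: GGGcGGGGGGGGGtGGGG
ARRDC3 G-quadruplex motif, chr5:90679222-90679243, minus strand: GGGaGGGGGcgcgcaGGGaGGG
ARRDC4 G-quadruplex motif, chr15:98504089-98504109, plus strand: GGGatGGGcGGGGaggctGGG
TXNIP G-quadruplex motif, chr1:145440179-145440201, plus strand: GGGtttaGGGGcaaGGGcatGGG
The paired motif of TXNIP began 88 bases before the start of its transcript, and 0.107% of 19578 protein-coding genes held such a pair in that window. The E-box of ARRDC4 began 210 bases before its start, after 9 flanking bases, and 8.75% of the genes held an E-box there. Neither motif was found in the windows of ARRDC1, ARRDC2 or ARRDC3.

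The 5 genes differed in G-quadruplex motifs and base composition. ARRDC1 had 17 motifs within 2000 bases of its start, a number reached by 0.352% of the protein-coding genes. ARRDC4 had 5, ARRDC2 had 3, ARRDC3 had 2 and TXNIP had 1, against a median of 2 over all genes, of which 75.1% had at least 1. The motif of TXNIP lay 1689 bases after the start, inside the gene, whereas that of ARRDC1 began 26 bases before it. The transcripts of ARRDC1 and ARRDC2 were 64.1% and 60.7% G or C, against 43.7% for TXNIP, 43.4% for ARRDC4, 37.2% for ARRDC3 and a median of 49.1%. The 3′ UTRs of ARRDC4 and ARRDC3 held 7 and 8 copies of AUUUA, a pentamer of AU-rich elements, and that of TXNIP held 1, against a median of 2. No copy was found in ARRDC1 or ARRDC2. At least 7 copies were held by 21.0% of annotated 3′ UTRs. Those of ARRDC4 and ARRDC3 are also long, with 2646 and 2769 bases, against a median of 1088. ARRDC3 also held 1 AU-rich nonamer, a motif found in 19.4% of annotated 3′ UTRs, here shown as DNA with the nonamer in capitals.
ARRDC3 AU-rich nonamer, chromosome 5: tttttTTATTTAATatagc
These matches describe the sequence, and no binding was measured.

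In the authors' annotation (GRCh37), TXNIP lies at chr1:145438469-145442635, ARRDC1 at chr9:140500106-140509812, ARRDC2 at chr19:18111941-18124911, ARRDC3 at chr5:90664541-90679176 and ARRDC4 at chr15:98462784-98517068. ARRDC3 is on the minus strand and the others are on the plus strand. Only ARRDC1 overlaps another gene of the annotation, the antisense gene C9orf37, by 29 bases at its 3′ end. Whether the count per gene used the strand was not given in the sources used here.

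The PDP libraries held 9770956 to 22363992 fragments, and both 0 µM libraries were the shallowest (9770956 and 10564894), so depth and dose cannot be told apart. Fragments within genes made up 86.5% to 89.7% of the PDP-treated libraries, against 82.6% and 82.99% at 0 µM. The conversion libraries held 6074118 to 17228999 fragments, with the acrylonitrile-only pair the shallowest. Fragments within genes made up 68.4% to 70.9% of the conversion libraries with acrylonitrile, against 85.8% to 90.6% of those without. The summed level of 6 genes that mark HEK293T cells was 303 to 319 FPM (fragments of a gene in 1000000 fragments of the library) at 8 µM, 316 to 317 at 4 µM and 291 to 299 at 0 µM. In the conversion experiment it was 114 to 124 FPM with s4U and acrylonitrile, 149 to 165 with s4U, 279.9 to 289 with acrylonitrile, and 316 to 322 with neither agent. Of 5 MCF7 markers, ESR1, TFF1 and KRT19 stayed below 0.63 FPM in all libraries, and GATA3 and XBP1 were well expressed. The 8 liver markers summed to at most 0.984 FPM in any PDP library. In the conversion libraries they summed to 20.9 and 41.7 FPM with s4U and acrylonitrile, 8.59 and 12.6 with s4U, 62.5 and 157 with acrylonitrile, and 18.5 and 19.2 with neither agent.

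At 0 µM PDP, ARRDC1 was the most abundant member per kilobase of exon, with 13.9 and 13.6 FPM per kb. ARRDC2 followed with 5.54 and 5.78, ARRDC4 with 3.502 and 3.868, TXNIP with 0.427 and 0.369, and ARRDC3 with 0.0616 and 0.0949 FPM per kb. No neighbours in this order overlapped, and the order was the same per kilobase of the canonical transcript. It holds for these libraries, which all had s4U and acrylonitrile. With neither agent, in the conversion experiment, mean levels not scaled by length were 51.3 FPM for ARRDC1 and 28.4 for ARRDC4. There ARRDC2 had 23.2, TXNIP 15.9 and ARRDC3 4.81 FPM, so ARRDC4 stood above ARRDC2 on that scale. ARRDC1 stood above 85.2% of 19578 protein-coding genes on this scale, while TXNIP and ARRDC3 stood above 39.0% and 29.4%. ARRDC5 had 1 fragment over the 6 PDP libraries and 1 over the 8 conversion libraries. Its level was not detectable at this depth, where 3 fragments correspond to 0.134 to 0.307 FPM in a PDP library.

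TXNIP showed the largest change of the 5 genes with PDP, and it rose in every fraction measured. Its total level was 1.54 and 1.33 FPM at 0 µM, 8.16 and 8.51 FPM at 4 µM, and 11.1 and 11.4 FPM at 8 µM. In bulk RNA, more cells with the transcript and more transcripts per cell cannot be told apart. These values came from 15 and 14 fragments at 0 µM, 181 and 190 at 4 µM, and 249 and 210 at 8 µM. No library of one dose overlapped with those of another. In the conversion experiment TXNIP was 15.2 and 16.6 FPM with neither agent, above every PDP library. It was 3.09 and 6.09 FPM there with acrylonitrile alone, and 8.88 and 9.59 FPM with s4U and acrylonitrile. The difference between the experiments was not tested. Total TXNIP was 7.87-fold higher at 8 µM than at 0 µM (log2 fold change 2.98 ± 0.21 SE, edgeR adjusted p = 5.16e-13), and 12 of 14124 genes had a larger log2 fold change. At 4 µM it was 5.82-fold higher (log2 fold change 2.54 ± 0.22 SE, edgeR adjusted p = 3.57e-11). The difference between the doses, 0.44 ± 0.12 on the log2 scale, did not pass the threshold (edgeR adjusted p = 0.151).

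**Figure D1:**
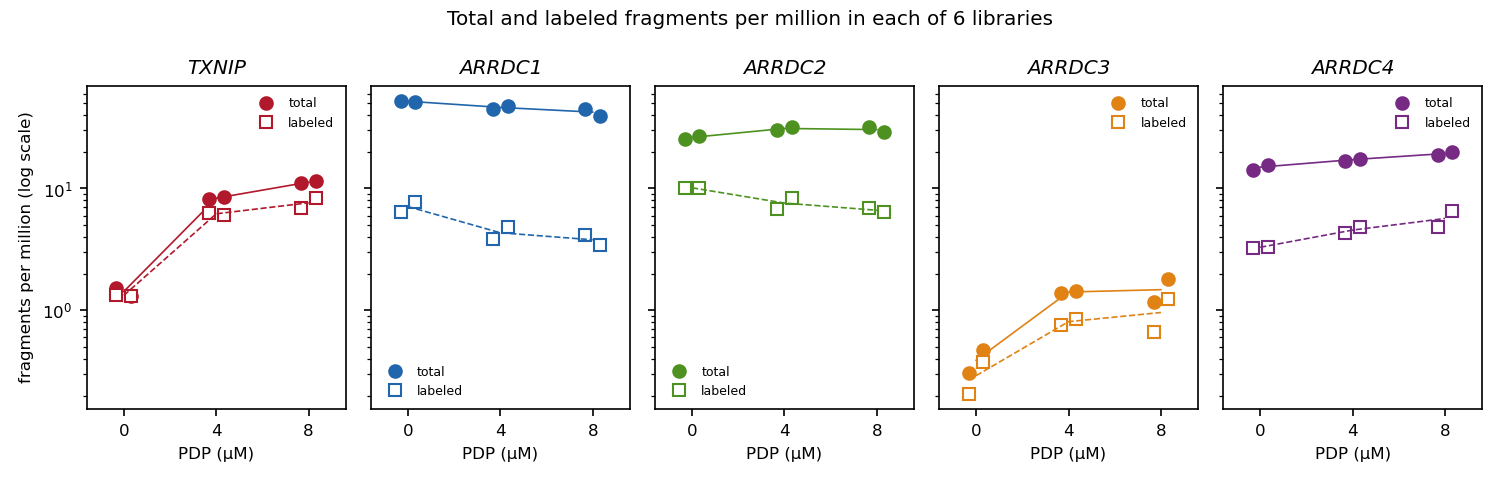
Total (filled circles) and labeled (open squares) FPM of each alpha-arrestin gene, on a log scale, against PDP dose in µM; each point is 1 library and the lines join the means of 2 libraries. Total TXNIP runs between 1.33 and 1.54 at 0 µM and between 11.1 and 11.4 at 8 µM, while labeled ARRDC1 runs between 6.45 and 7.76 at 0 µM and between 3.43 and 4.16 at 8 µM.

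Labeled TXNIP, the RNA made in the hour with s4U, was 1.33 FPM in both libraries at 0 µM, 6.35 and 6.05 FPM at 4 µM, and 6.89 and 8.38 FPM at 8 µM. It was 5.69-fold higher at 8 µM than at 0 µM (log2 fold change 2.51 ± 0.25 SE, edgeR adjusted p = 9.99e-20) and 4.65-fold higher at 4 µM (2.22 ± 0.26, edgeR adjusted p = 8.59e-15). Of all genes, 44 had a larger log2 fold change at 8 µM and 29 at 4 µM. Unlabeled TXNIP fragments numbered 2 and 0 at 0 µM, 40 and 55 at 4 µM, and 95 and 56 at 8 µM. The ratio of their summed counts, scaled to the fragments of the libraries, was 37.7 at 8 µM against 0 µM, with an exact 95% counting interval of 10.3 to 314, and 21.7 at 4 µM against 0 µM (5.84 to 182). The rise of TXNIP in total, labeled and unlabeled RNA at both doses passed the threshold under all alternatives tried, including a GC term for each library.

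The JUN, FAM83E, TIAM2, DUSP1 and KLF10 transcripts were nearest to labeled TXNIP over the 6 libraries, among 5784 protein-coding genes with a mean of at least 5 labeled FPM. Nearness was the Euclidean distance of log2 labeled FPM (pseudocount 0.1) relative to the 0 µM mean, and ran from 1.24 for FAM83E to 2.09 for KLF10, against a median of 5.11. At 0 µM, labeled FAM83E (4.40 and 4.26 FPM), TIAM2 (3.89 and 3.22) and KLF10 (4.30 and 3.69) lay under 5 FPM. These genes thus entered through the PDP-treated libraries. Since TXNIP rose, nearness to it picks genes that rose, and the distances only describe these libraries. JUN encodes a subunit of the transcription factor AP-1, DUSP1 a phosphatase of MAP kinases and KLF10 a zinc finger transcription factor. Labeled JUN was 162 and 164 FPM at 0 µM, 376 and 406 at 4 µM, and 927 and 841 at 8 µM. JUN, DUSP1 and KLF10 are known as early response genes, a statement from background knowledge and not from these libraries.

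ARRDC3, an adaptor for the integrin ITGB4, was also higher with PDP, from few fragments. Its total level was 0.307 and 0.473 FPM at 0 µM (3 and 5 fragments), 1.40 and 1.43 FPM at 4 µM (31 and 32 fragments), and 1.16 and 1.80 FPM at 8 µM (26 and 33 fragments). Both doses lay above 0 µM with no overlap, and the doses overlapped with each other. In the conversion experiment ARRDC3 was 4.81 FPM in both libraries with neither agent, above every PDP library. It was 0.129 to 1.32 FPM in the libraries with acrylonitrile there. The gene passed the filter of 1 FPM on average only through the PDP-treated libraries, so the p-values given here for its total RNA come from the fit with no filter on low values. Total ARRDC3 was 3.64-fold higher at 8 µM than at 0 µM (log2 fold change 1.87 ± 0.48 SE, edgeR adjusted p = 0.00121) and 3.55-fold higher at 4 µM (1.83 ± 0.48, edgeR adjusted p = 0.00152). Labeled ARRDC3 was 0.671 and 1.25 FPM at 8 µM, against 0.205 and 0.379 FPM at 0 µM. That log2 fold change was 1.64 ± 0.58 SE (edgeR adjusted p = 0.0197 with no filter), and among the filtered genes it no longer passed the threshold without the first 0 µM library (1.29, edgeR adjusted p = 0.160) or with a GC term (1.33, edgeR adjusted p = 0.0785). Without the second 8 µM library the gene fell under the filter. At 4 µM labeled ARRDC3 was 0.766 and 0.851 FPM, with a log2 fold change of 1.43 ± 0.59 (edgeR adjusted p = 0.0737 with no filter).

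ARRDC4, which like TXNIP is known as a target of MondoA, rose in labeled RNA at 8 µM. Labeled ARRDC4 was 3.28 and 3.31 FPM at 0 µM, 4.28 and 4.84 FPM at 4 µM, and 4.87 and 6.48 FPM at 8 µM, with no overlap between doses. The log2 fold change was 0.77 ± 0.21 SE at 8 µM (edgeR adjusted p = 0.00161) and 0.47 ± 0.22 at 4 µM (edgeR adjusted p = 0.0934). The call at 8 µM was lost without the second 8 µM library (0.56, edgeR adjusted p = 0.0673) and with a GC term (0.51, edgeR adjusted p = 0.0594). Total ARRDC4 was 14.2 and 15.7 FPM at 0 µM, 16.9 and 17.6 FPM at 4 µM, and 18.7 and 20.0 FPM at 8 µM. Its log2 fold change at 8 µM, 0.37 ± 0.12 (edgeR adjusted p = 0.00650), lay close to the median of all genes, 0.32, and the call was lost with TMM scaling (0.09, edgeR adjusted p = 0.521), with a GC term and without the first 0 µM library (0.30, edgeR adjusted p = 0.0953).

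ARRDC1, which directs the budding of small vesicles from the plasma membrane, fell in labeled RNA at both doses. Labeled ARRDC1 was 6.45 and 7.76 FPM at 0 µM, 3.88 and 4.79 FPM at 4 µM, and 4.16 and 3.43 FPM at 8 µM. Both doses lay below 0 µM, and they overlapped with each other. The log2 fold change was -0.90 ± 0.19 SE at 8 µM (edgeR adjusted p = 2.40e-05), a 1.86-fold lower level, and -0.72 ± 0.18 at 4 µM (edgeR adjusted p = 0.000899). With a GC term for each library the values were -0.38 (edgeR adjusted p = 0.120) at 8 µM and -0.30 (edgeR adjusted p = 0.268) at 4 µM. Without the second 0 µM library the 4 µM value was -0.57 (edgeR adjusted p = 0.0851). The labeled share of ARRDC1 was 9.24% and 8.65% at 8 µM, against 12.3% and 15.1% at 0 µM, while 7.63% of its fragments carried a mismatch in the acrylonitrile-only libraries of the other experiment. That background was not subtracted from the labeled levels here.

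The total level of ARRDC1 moved less. It was 52.5 and 51.4 FPM at 0 µM, 45.2 and 47.3 FPM at 4 µM, and 45.0 and 39.6 FPM at 8 µM. The log2 fold change at 8 µM was -0.29 ± 0.08 SE (edgeR adjusted p = 0.00275), and 689 genes had a smaller one. With a GC term it was 0.14 at 8 µM and 0.23 at 4 µM, so its direction depended on that term. Unlabeled ARRDC1 was 40.8 and 36.2 FPM at 8 µM, against 46.1 and 43.6 FPM at 0 µM (-0.22 ± 0.09, edgeR adjusted p = 0.0280), and it was 0.23 with the GC term (edgeR adjusted p = 0.0110). ARRDC1 met the rule that the study used for targets of PDP, a labeled level per kb of transcript at most 1/1.5 of that in the 0 µM library of the same number, at both doses and in both replicates. Its 4 ratios ran from 0.442 to 0.645, and 9.73% of the 6811 protein-coding genes expressed highly enough met the rule.

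ARRDC2, one of the less studied alpha-arrestins, fell in labeled RNA while its unlabeled RNA rose. Labeled ARRDC2 was 10.1 FPM in both libraries at 0 µM, 6.80 and 8.38 FPM at 4 µM, and 6.89 and 6.37 FPM at 8 µM. The log2 fold change was -0.61 ± 0.15 SE at 8 µM (edgeR adjusted p = 0.000538) and -0.42 ± 0.15 at 4 µM (edgeR adjusted p = 0.0241). With a GC term these were -0.21 (edgeR adjusted p = 0.327) and -0.11 (edgeR adjusted p = 0.687). ARRDC2 did not meet the rule for targets, with ratios of 0.672 and 0.827 at 4 µM, and 0.680 and 0.629 at 8 µM. The 4 µM call was lost under several other alternatives, without the first 0 µM library (-0.42, edgeR adjusted p = 0.114), the second 0 µM library (-0.42, edgeR adjusted p = 0.127) or the first 4 µM library (-0.27, edgeR adjusted p = 0.251) among them.

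Unlabeled ARRDC2 was 25.1 and 22.5 FPM at 8 µM, against 15.6 and 16.7 FPM at 0 µM (log2 fold change 0.56 ± 0.11 SE, edgeR adjusted p = 4.74e-05). The median of all genes in that fraction was 0.43, and the change of ARRDC2 was 0.17 with TMM scaling (edgeR adjusted p = 0.175) and 0.90 with a GC term. Total ARRDC2 was 25.7 and 26.8 FPM at 0 µM, 30.1 and 32.1 FPM at 4 µM, and 32.0 and 28.8 FPM at 8 µM. Its change was 0.21 ± 0.10 at 8 µM (edgeR adjusted p = 0.0549) and 0.24 ± 0.10 at 4 µM (edgeR adjusted p = 0.0295), both below the median of all genes. It turned negative with TMM scaling and was 0.54 at 8 µM with a GC term.

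**Figure D2:**
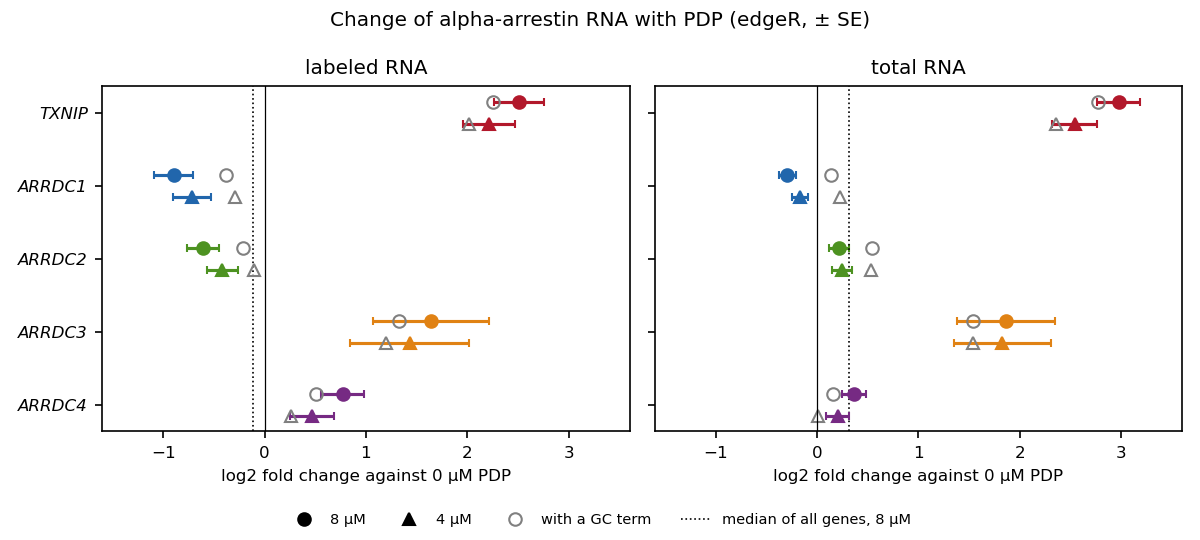
Log2 fold changes against 0 µM PDP in labeled (left) and total RNA (right) for 8 µM (circles) and 4 µM (triangles), with edgeR standard errors; open grey symbols are the values with a GC term and the dotted line is the median of all genes at 8 µM. TXNIP stands at 2.51 and 2.98 at 8 µM, and with a GC term ARRDC1 moves from -0.90 to -0.38 in labeled RNA.

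Besides ARRDC3, which entered the test through its PDP-treated libraries alone, 2 of the 4 genes rose and 2 fell in labeled RNA at 8 µM, where 10.3% of 14124 genes rose and 27.5% fell. At 4 µM, 1 rose and 2 fell (9.24% and 19.9% of all genes). In total RNA at 8 µM, 2 rose and 1 fell (54.0% and 9.47%), and at 4 µM 2 rose (53.6% of all genes rose and 7.69% fell). In unlabeled RNA at 8 µM, 2 rose and 1 fell (61.3% and 5.86%), and at 4 µM 2 rose (60.4% rose and 4.68% fell). The median log2 fold change of the 4 genes in labeled RNA at 8 µM was 0.081, against -0.11 over all genes. None of the 5 differed between 8 and 4 µM in labeled or total RNA by edgeR, where 5.62% and 0.368% of all genes did, and TXNIP alone was under an unadjusted p of 0.05 there. All contrasts with 0 µM share the same pair of control libraries. The 2 genes that fell are also the 2 with the most G and C in the transcript, and the 3 that rose have less than the median. The part of base composition in these changes was not tested beyond the GC term above.

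The share of labeled fragments, which rises with turnover, differed between the members. A fragment counts as labeled only where it shows a T-to-C mismatch, so the share may also depend on U content. The transcripts are 32.2% U for ARRDC3, 29.6% for TXNIP, 28.8% for ARRDC4, 19.5% for ARRDC1 and 18.8% for ARRDC2. The part of U content in the shares was not tested. At 0 µM PDP, 86.7% and 100% of TXNIP fragments were labeled after 1 h, 13 of 15 (95% Wilson interval 62.1% to 96.3%) and 14 of 14 (78.5% to 100%). Over 12885 protein-coding genes with at least 1 FPM the median share was 20.0%, and 2 other genes reached the mean of TXNIP. ARRDC3 had 2 of 3 and 4 of 5 fragments labeled, with intervals too wide to place it. ARRDC2 had shares of 39.4% and 37.8%, higher than in 88.2% of the genes. ARRDC4 had 23.0% and 21.1%, and ARRDC1 had 12.3% and 15.1%. The counting intervals of ARRDC2 lay above those of ARRDC4 and ARRDC1 in both libraries.

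Under the formula of the study, which takes the RNA to be at a steady level over 60 min, these shares corresponded to half-lives of 85.2 ± 3.3 min for ARRDC2, 167 ± 12 min for ARRDC4 and 286 ± 45 min for ARRDC1 (SD, n = 2). The median of 12811 protein-coding genes was 190 min. This is shorter than the median half-life that the paper reports for HEK293T cells, and the reason was not tested. TXNIP had a half-life of 20.6 min in the first library, while the second held no unlabeled fragment and gave none; the counting intervals allow up to 42.8 and 27.1 min. In the acrylonitrile-only libraries, 7.63% of ARRDC1, 7.49% of ARRDC4, 5.95% of ARRDC2 and 4.92% of TXNIP fragments carried a mismatch without any s4U. With that background subtracted, the half-lives of ARRDC1 were 806 and 493 min in the 2 libraries (mean 649 min). Those of ARRDC4 were 226 and 262 min (mean 244 min), and those of ARRDC2 were 94.5 and 101 min (mean 97.5 min). TXNIP had 21.2 min, from the first library alone. The median over all genes was not computed with a background subtracted. The order of the 4 genes stayed the same. Whether their levels were steady over the 60 min was not tested, since every library of the PDP experiment received s4U. In the conversion experiment, 24 h of s4U alone at a lower dose went with 5.52-fold higher TXNIP, 8.49-fold lower ARRDC1 and 3.31-fold lower ARRDC4. The change of ARRDC2 there, 0.18 on the log2 scale, did not pass the threshold. The half-lives therefore describe s4U-treated cells under that assumption, with no correction for U content.

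**Figure D3:**
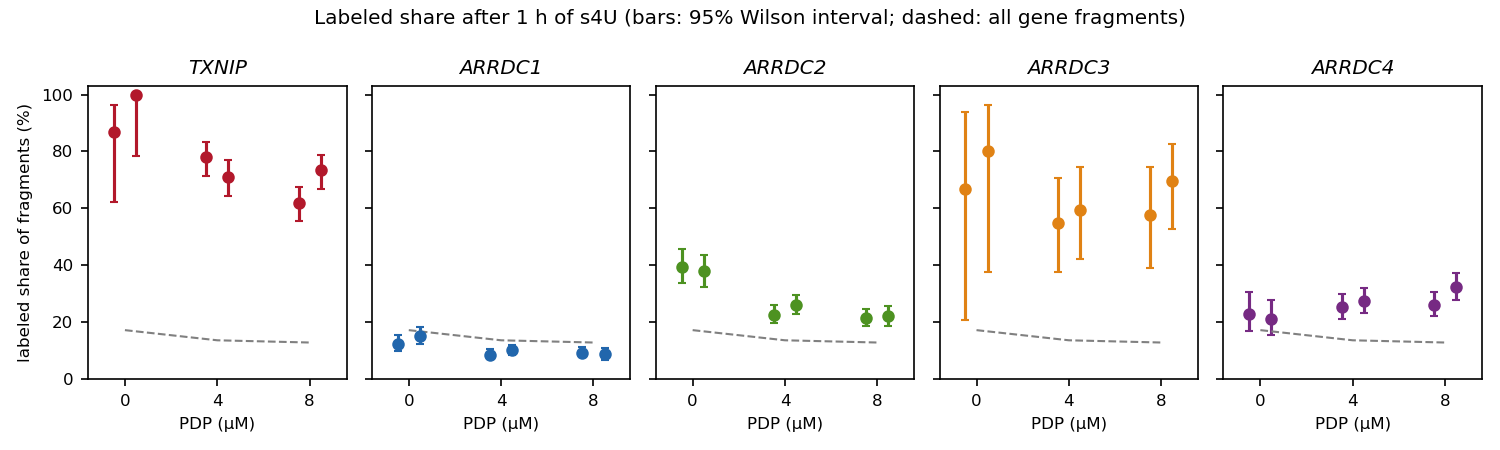
Share of labeled fragments in percent after 1 h of s4U against PDP dose in µM; each point is 1 library with its 95% Wilson interval, and the dashed line is the share over all gene fragments, 17.2% at 0 µM and 12.9% at 8 µM. ARRDC2 sits at 37.8% and 39.4% at 0 µM and near 22% at 8 µM, while ARRDC4 runs from 21.1% to 32.3%.

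With PDP the labeled share over all genes was lower, 12.9% ± 0.4 at 8 µM and 13.6% ± 0.2 at 4 µM, against 17.2% ± 0.03 at 0 µM (SD, n = 2 each). The share of ARRDC4 went the other way, at 26.1% and 32.3% at 8 µM, against 23.0% and 21.1% at 0 µM. In a model of labeled against unlabeled fragments of the same library, ARRDC4 rose by 0.54 ± 0.24 on the log2 scale at 8 µM (edgeR adjusted p = 0.0467), and 0.637% of all genes rose in this measure. That call was lost without either 0 µM library or the second 8 µM library, with values of 0.32 to 0.61 and adjusted p of 0.0905 to 0.295. It was also lost with a GC term (0.49, edgeR adjusted p = 0.0756), with no filter on low values (0.54, edgeR adjusted p = 0.124), with DESeq2 (0.54, adjusted p = 0.175) and with limma at a pseudocount of 1 (0.41, adjusted p = 0.0504). With TMM scaling of each fraction, which brings the median of all genes near 0, it was 1.10 (edgeR adjusted p = 0.000204). At 4 µM the change was 0.35 ± 0.24 (edgeR adjusted p = 0.230).

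The labeled share of ARRDC2 fell. It was 21.5% and 22.1% at 8 µM and 22.6% and 26.1% at 4 µM, against 39.4% and 37.8% at 0 µM. Relative to its unlabeled RNA it fell by 1.17 ± 0.18 on the log2 scale at 8 µM (edgeR adjusted p = 5.47e-09), where 54.0% of all genes fell and their median was -0.59. ARRDC1, with 9.24% and 8.65% at 8 µM against 12.3% and 15.1% at 0 µM, fell by 0.69 ± 0.19 (edgeR adjusted p = 0.00117), close to that median. The call for ARRDC1 was lost with TMM scaling of each fraction (-0.12, edgeR adjusted p = 0.738) and without the second 0 µM library (-0.50, edgeR adjusted p = 0.0929).

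The labeled share of TXNIP was 61.8% and 73.3% at 8 µM and 77.9% and 71.1% at 4 µM, against 86.7% and 100% at 0 µM. Its fall of 2.63 ± 0.82 on the log2 scale at 8 µM (edgeR adjusted p = 0.00447) rests on the 2 unlabeled fragments at 0 µM, and without the second 0 µM library it was -1.63 (edgeR adjusted p = 0.163), and without the first, where no unlabeled fragment is left at 0 µM, the size of the fall has no meaning. With TMM scaling of each fraction it was -2.03 (edgeR adjusted p = 0.0944). Over all 15 alternatives the value nearest to no change was -0.18, so the size of the fall depended strongly on the processing. At 4 µM the fall of TXNIP was 2.13 (edgeR adjusted p = 0.0338), and that call was lost with TMM scaling (-1.62, edgeR adjusted p = 0.266), with no filter on low values (edgeR adjusted p = 0.0968), with DESeq2 (adjusted p = 0.114), and without the second 0 µM or the second 4 µM library (-1.13 and -1.84, edgeR adjusted p = 0.400 and 0.0879). ARRDC3, with 57.7% and 69.7% at 8 µM, changed by -0.67 ± 1.21 (edgeR adjusted p = 0.650). Besides ARRDC3, 1 of the 4 genes rose and 3 fell in this measure at 8 µM, and at 4 µM 3 fell, where 45.9% of all genes did. No half-life was computed for PDP-treated cells, since the formula takes levels to be steady.

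Fragments in the windows beside the genes were few. Downstream of ARRDC1 there were 2 and 3 fragments at 8 µM and 4 and 1 at 4 µM, against 0 and 1 at 0 µM. Downstream of the other 4 genes no library held more than 3. Upstream of ARRDC3 there were 8 and 2 fragments at 8 µM and 4 and 8 at 4 µM, against 1 and 3 at 0 µM. None of the 5 genes reached the 0.5 FPM needed for a test in either window.

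The genes that work with alpha-arrestins were compared as lists, whose choice was made with earlier results known. Their values come from the main fits, and alternative scalings and the GC term were not examined for the listed genes. Of 9 NEDD4-family ubiquitin ligases, 8 rose in total RNA at 8 µM (54.0% of all genes did) and 3 in labeled RNA (10.3% of all genes), and none fell. The median of the list in total RNA was 0.60, against 0.32 over all genes. The 4 with the highest mean total FPM, not scaled by length, are given here. ITCH rose by 1.11 ± 0.11 on the log2 scale in total RNA (edgeR adjusted p = 4.16e-10) and SMURF1 by 0.67 ± 0.09. NEDD4L had a change of 0.18 ± 0.09 that did not pass (edgeR adjusted p = 0.0829). WWP2, the highest of them in total FPM, rose in labeled RNA by 0.41 ± 0.16 (edgeR adjusted p = 0.0291).

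In the network of MondoA, MLXIP (the gene of MondoA) and MLXIPL (the gene of its paralog ChREBP) fell in labeled RNA at 8 µM, by 0.42 ± 0.09 (edgeR adjusted p = 2.56e-05) and 0.52 ± 0.16 (edgeR adjusted p = 0.00424). MLX had a labeled change of -0.07 ± 0.18 (edgeR adjusted p = 0.783). In total RNA MLXIP and MLXIPL had changes of 0.04 and -0.02 that did not pass, and MLX rose by 0.52 ± 0.10. So 1 of the 3 rose in total RNA and 2 fell in labeled RNA, where 54.0% and 27.5% of all genes did.

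Of 5 genes of the thioredoxin system, 3 rose in total RNA and 2 fell in labeled RNA at 8 µM, near the 54.0% and 27.5% of all genes. TXN, which encodes the thioredoxin that TXNIP binds, was among both, with changes of 0.69 ± 0.10 in total RNA (edgeR adjusted p = 6.08e-07) and -0.45 ± 0.18 in labeled RNA (edgeR adjusted p = 0.0379). The reductase gene TXNRD2 fell by 0.80 ± 0.15 in labeled RNA (edgeR adjusted p = 7.30e-07). Of 4 measured glucose transporters and hexokinases, 3 rose in total RNA and 1 fell in labeled RNA, again beside 54.0% and 27.5% of all genes. SLC2A1, the transporter gene whose product TXNIP helps remove from the surface, rose by 0.23 ± 0.07 in total RNA (edgeR adjusted p = 0.00574), less than the median of all genes, and had a labeled change of -0.11 ± 0.12 (edgeR adjusted p = 0.509).

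Among the other arrestins, ARRB2 fell by 0.88 ± 0.12 in labeled RNA at 8 µM (edgeR adjusted p = 2.27e-11) and ARRB1 had a change of -0.15 ± 0.17 (edgeR adjusted p = 0.509), while SAG and ARR3, the arrestins of the retina, were too low to test. Of 3 genes of VPS26 proteins, which share the arrestin fold, 2 rose in total RNA and 1, VPS26B, fell in labeled RNA. Of 4 genes of the ESCRT machinery that ARRDC1 uses for budding, 3 rose in total RNA and 1, VPS4A, fell in labeled RNA. Both counts stand beside the 54.0% of all genes that rose in total RNA and the 27.5% that fell in labeled RNA. TSG101, the ESCRT protein that ARRDC1 binds, rose by 0.59 ± 0.12 in total RNA (edgeR adjusted p = 6.79e-05). ITGB4, a cargo gene of ARRDC3, had a total change of 0.01 ± 0.21 (edgeR adjusted p = 0.980).

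After 24 h of s4U in the conversion experiment, TXNIP and the pair ARRDC1 and ARRDC4 moved in opposite directions. TXNIP had 953 and 1337 fragments with s4U alone, against 199 and 197 with neither agent. Scaled by TMM, these were 74.8 and 83.5 CPM (counts in 1000000, scaled), against 13.7 and 14.96 CPM. TXNIP was 5.52-fold higher (log2 fold change 2.47 ± 0.20 SE, edgeR adjusted p = 3.73e-06), and 1167 of 18914 genes had a larger log2 fold change. Among acrylonitrile-treated RNA it was 14.9 and 17.5 CPM with s4U, against 4.39 and 9.10 CPM without (log2 fold change 1.31 ± 0.27, edgeR adjusted p = 0.00187), and 0.88 or 1.92 without the first or the second acrylonitrile library.

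ARRDC1 was 4.95 and 5.87 CPM with s4U alone, against 45.4 and 47.1 CPM with neither agent, and so 8.49-fold lower (log2 fold change -3.09 ± 0.14 SE, edgeR adjusted p = 1.71e-07). With acrylonitrile it was 13.8 and 12.8 CPM with s4U, against 97.05 and 94.98 CPM without (-2.85 ± 0.14, edgeR adjusted p = 3.84e-07). Without acrylonitrile, 703 genes had a smaller log2 fold change than ARRDC1. ARRDC4 was 7.85 and 7.62 CPM with s4U alone, against 25.7 and 25.5 CPM with neither agent (-1.73 ± 0.15, edgeR adjusted p = 5.81e-06). With acrylonitrile it was 9.17 and 9.58 CPM with s4U, against 36.9 and 45.5 CPM without (-2.13 ± 0.17, edgeR adjusted p = 3.82e-06). The rise of TXNIP and the fall of ARRDC1 and ARRDC4 passed the threshold in all fits tried, a GC term included. Of the 6 genes that mark HEK293T cells, 4 fell and 1 rose with s4U alone, with a median log2 fold change of -1.65, against 0.015 over all genes. With acrylonitrile the counts were the same and the median was -1.05, against 0.051. The part of these markers in the s4U changes was not tested.

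ARRDC2 was 19.9 and 27.3 CPM with s4U alone, against 20.2 and 21.7 CPM with neither agent, and its change of 0.18 ± 0.16 did not pass (edgeR adjusted p = 0.354). With acrylonitrile its change with s4U was 0.02 ± 0.16 (edgeR adjusted p = 0.932). ARRDC3 was 6.36 and 6.12 CPM with s4U alone, against 4.34 and 4.33 CPM with neither agent, a change of 0.52 ± 0.34 (edgeR adjusted p = 0.186). With a GC term ARRDC2 was 0.64 higher with s4U alone (edgeR adjusted p = 0.00247) and 0.42 with acrylonitrile (edgeR adjusted p = 0.0243). So 1 of the 5 genes rose and 2 fell with s4U alone, where 35.8% of all genes rose and 34.7% fell, and with acrylonitrile the counts were also 1 and 2 (33.2% and 31.1%). The contrasts that include s4U with acrylonitrile may hold a difference in s4U dose, since the labels give 500 µM there.

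**Figure D4:**
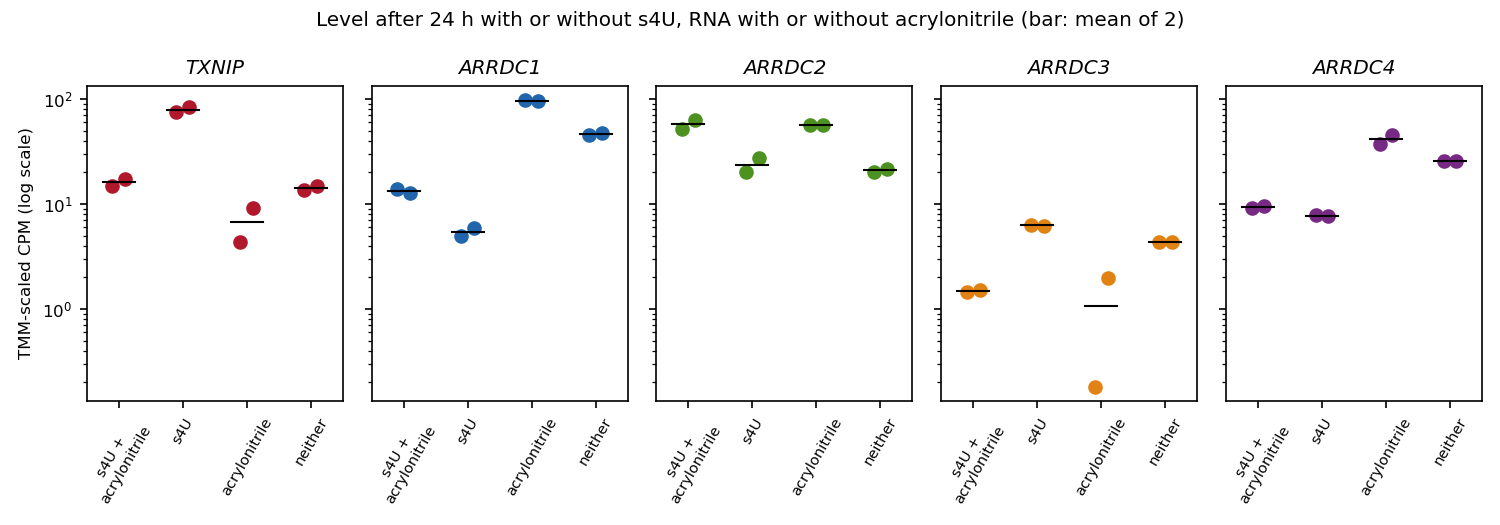
Level of each alpha-arrestin gene in TMM-scaled CPM, on a log scale, in the 4 groups of the conversion experiment; each point is 1 library and the bar is the mean of 2. TXNIP is at 74.8 and 83.5 with s4U alone, against 13.7 and 14.96 with neither agent, and ARRDC1 is at 4.95 and 5.87 with s4U alone, against 45.4 and 47.1.

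Acrylonitrile itself went with lower TXNIP and ARRDC3 and higher ARRDC1 and ARRDC2 counts. The libraries with acrylonitrile also held a lower share of fragments within genes, as given above, and its part in these changes was not tested. Without s4U, TXNIP was 4.39 and 9.10 CPM with acrylonitrile, against 13.7 and 14.96 CPM without (log2 fold change -1.14 ± 0.26 SE, edgeR adjusted p = 0.00377), and ARRDC3 had 1 and 8 fragments, against 63 and 57 (-2.16 ± 0.55, edgeR adjusted p = 0.00631). Without the first acrylonitrile library these were -0.68 for TXNIP and -1.16 for ARRDC3, and without the second -1.72 and -4.49. ARRDC1 rose by 1.05 ± 0.12 on the log2 scale (edgeR adjusted p = 4.99e-05), ARRDC2 by 1.43 ± 0.17 (edgeR adjusted p = 6.05e-05) and ARRDC4 by 0.68 ± 0.15 (edgeR adjusted p = 0.00253). ARRDC3 passed the filter through the libraries without acrylonitrile, and with no filter its change was -2.30 (edgeR adjusted p = 8.48e-07). Beside these 3 genes and TXNIP, 29.1% and 30.7% of all genes were called higher and lower. Within s4U-treated cells TXNIP fell by 2.29 ± 0.21 (edgeR adjusted p = 1.19e-05) and ARRDC3 by 2.07 ± 0.44 (edgeR adjusted p = 0.00201), while ARRDC1 rose by 1.29 ± 0.15 and ARRDC2 by 1.27 ± 0.16 (31.0% of all genes rose and 34.1% fell). ARRDC4 had a change of 0.28 ± 0.17 that did not pass (edgeR adjusted p = 0.182).

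With a GC term for each library the acrylonitrile effect without s4U was -0.54 for TXNIP (edgeR adjusted p = 0.164), -1.13 for ARRDC3 (edgeR adjusted p = 0.163) and -0.31 for ARRDC1, a change of sign. Within s4U-treated cells that term took away the calls of ARRDC2 (0.20, edgeR adjusted p = 0.288), ARRDC3 (-0.89, edgeR adjusted p = 0.138) and ARRDC1 (-0.14, edgeR adjusted p = 0.482), and ARRDC4 then passed (0.94, edgeR adjusted p = 0.00210). Of the 8 liver markers, the 7 that could be tested all rose with acrylonitrile in the comparison without s4U, and their part in these changes was not tested. The difference of the acrylonitrile effect with and without s4U was -1.16 ± 0.34 for TXNIP (edgeR adjusted p = 0.125), and it passed for none of the 5 genes by edgeR, where it did for 1.64% of all genes. At an unadjusted edgeR p under 0.05 stood TXNIP alone.

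Marking after 24 h was near complete for 3 members. With s4U and acrylonitrile, 96.5% and 95.2% of TXNIP fragments carried a T-to-C mismatch (95% Wilson intervals 91.3% to 98.6% and 89.2% to 97.9%), against at most 14.3% in any of the 6 other libraries. ARRDC2 reached 94.2% and 95.4%, ARRDC4 94.3% and 94.7%, and ARRDC1 84.8% and 86.8%, against at most 13.1% elsewhere for each. The median over 13786 genes was 91.7%. These 4 genes had at least 20 fragments in all 8 libraries and did not overlap with the other groups, as was the case for 99.9% of 11858 such genes. ARRDC3 had 8 of 11 and 8 of 9 fragments marked and did not reach 20.

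TXNIP stood out in how many mismatches a fragment held. Its fragments carried 5.71 and 4.92 mismatches on average, more than in 99.8% of the genes, whose median was 3.47. The TXNIP transcript is 29.6% U, against 32.2% for ARRDC3, 28.8% for ARRDC4, 19.5% for ARRDC1, 18.8% for ARRDC2 and a median of 24.7%. ARRDC1, ARRDC2 and ARRDC4 carried 3.202 to 3.487 mismatches per fragment, and ARRDC3 carried 4.00 and 3.56 (11 and 9 fragments). The part of U content in these numbers was not tested. With s4U alone TXNIP fragments carried 0.194 and 0.135, with acrylonitrile alone 0.417 and 0.0541 (24 and 37 fragments), and with neither agent 0.0553 and 0.0914. Whether fragments with many mismatches were lost in mapping was not tested.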

How the data were processed

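The authors trimmed reads with cutadapt 1.18, collapsed reads of identical sequence, removed rRNA and kept unique HISAT2 2.1.0 alignments to GRCh37 (versions from the submitters' processing notes), leaving out mismatches at polymorphisms. They deposited fragment counts per gene, by number of mismatches in the conversion experiment and as total and mismatch-bearing counts for PDP, and the PDP counts also as FPM (an RPM over all fragments of the library). The mismatch type was taken as T-to-C from the study's methods. The authors' own half-lives were not used.

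Here edgeR 4.0.16 quasi-likelihood fits on counts used the authors' library totals for PDP (mean of at least 1 total and 0.5 labeled FPM, 14124 genes) and TMM for the conversion experiment (18914 genes), with Benjamini-Hochberg adjustment over all genes and a threshold of 0.05. All groups of an experiment shared 1 fit, and labeled and unlabeled fragments were compared through an interaction. Fits were tested on simulated data. Wilson intervals (95%) cover counting error only. The members and lists were chosen with earlier results of these data known. Named genes were the 6 alpha-arrestins, the first 4 genes per list by mean total FPM and the 5 nearest to TXNIP, and others in the text were chosen after their values were seen. Alternatives covered scaling, filters, DESeq2 1.42.0, limma 3.58.1 with pseudocounts of 0.1 and 1, a replicate block, each library left out, and a GC term (spline, 6 degrees of freedom), which for PDP was added after seeing the data.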

Additional observations from a re-analysis of the deposited data

How the results depend on the processing

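The rise of TXNIP in total, labeled and unlabeled RNA with PDP, its rise with 24 h of s4U and the fall of ARRDC1 and ARRDC4 with s4U kept their direction and passed under all alternatives run. Over all genes, labeled calls at 8 µM numbered 5340, against 3198 with DESeq2. At 4 µM they numbered 4119, against 2221 with DESeq2, 2499 with a GC term and 2601 to 4190 when a library was left out. Between 8 and 4 µM they numbered 794, against 185 with TMM, 193 with DESeq2 size factors, 292 with DESeq2, 475 with limma (pseudocount 0.1), 269 with a GC term and 356 to 633 with a library left out. Total RNA gave 52 calls there, against 21 with a stricter filter, 12 with DESeq2, 20 and 29 with limma (pseudocounts 0.1 and 1) and 3 to 777 with a library left out, the 777 without the first 8 µM library. Labeled against unlabeled RNA gave 7715 calls at 8 µM and 6521 at 4 µM, against 2295 and 1371 with TMM and 2303 and 1390 with DESeq2 size factors. Acrylonitrile gave 11303 calls without s4U and 12305 with it, against 6394 and 7799 with a GC term.

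Directions turned as follows, and the cause was not tested. In total RNA, ARRDC2 was -0.064 at 8 µM and -0.041 at 4 µM with TMM, and -0.10 and -0.063 with DESeq2 size factors. Total ARRDC4 at 4 µM was -0.082 and -0.10 under these scalings. Unlabeled ARRDC4 was -0.16 at 8 µM and -0.27 at 4 µM with TMM, -0.20 and -0.29 with DESeq2 size factors, and -0.075 at 4 µM with a GC term. With that term ARRDC1 was 0.14 and 0.23 in total RNA and 0.23 and 0.32 in unlabeled RNA at 8 and 4 µM, and total ARRDC2 at 8 against 4 µM was 0.0066. With acrylonitrile, ARRDC1 was then -0.31 without s4U and -0.14 with it. With limma (pseudocount 1), labeled against unlabeled ARRDC3 at 8 µM and TXNIP at 4 µM were both 0.12. Scaled to all fragments of the library, ARRDC4 was -0.014 with acrylonitrile without s4U and -0.34 with s4U, and ARRDC2 with s4U was -0.15 without acrylonitrile and -0.25 with it. With a library left out, total ARRDC2 at 8 against 4 µM ran from -0.11 to 0.040, ARRDC2 with s4U from -0.069 to 0.38 without acrylonitrile and from -0.050 to 0.18 with it, and ARRDC3 with s4U and acrylonitrile against acrylonitrile from -0.36 to 2.98. The counts of 14 and 15 TXNIP fragments at 0 µM limit its labeled share there.

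Correlations between same-numbered deviations ran from -0.02 to 0.10, so no pairing of the libraries by replicate number was seen. Pairing is not excluded, since counting error in genes with few fragments also keeps such correlations low. With a replicate block the labeled calls at 8 µM numbered 5256 and the total calls 8989. The GC term with a replicate block gave 6395 and 7805 acrylonitrile calls without and with s4U, and ARRDC1 at -0.31 and -0.15.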
